A study of Mus musculus with 6 samples.

Results

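The genes whose mouse symbol is Zfp followed by a number encode zinc finger proteins. The rule that picks them uses the annotated symbol alone, on probe sets annotated with a single gene. The 3 chips of the set carried 427 such probe sets for 254 genes, among 15964 genes with a single-symbol probe set in all. RNA labelled as spermatogonia, dividing male germ cells that precede meiosis, came from mice 1 week old on a background written 129sv/c57Bl6, either Zfp145 knockout (Null) or wild type (WT). For each genotype there was 1 array of U74Av2, 1 of U74Bv2 and 1 of U74Cv2, Affymetrix chips that differ in the probe sets they hold. The labels give neither the allele, the number of animals nor whether the 3 chips of a genotype shared an RNA extract. Single arrays allow neither a replicate check of any difference nor a p-value, and their number limits the precision.

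Most Zfp proteins bind DNA through tandem fingers of the Krüppel type, in which cysteine and histidine residues hold a zinc ion. Many also carry a KRAB domain, which recruits the corepressor Trim28 and with it the histone methyltransferase Setdb1, heterochromatin proteins and DNA methylation, and which is best known for silencing retroelements in germ and stem cells. A minority work elsewhere, in RNA decay, ribosome assembly or spindle function. The disrupted gene was itself named in this series as Zfp145. It is now Zbtb16, also called PLZF, a BTB domain repressor needed for spermatogonial self-renewal in the mouse, and under its current symbol it falls outside the Zfp genes described here.

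The knockout was checked first on Zbtb16. On U74Av2 1 probe set read 158.1 on the Null array and 770.2 on the WT array, 4.90-fold lower in Null. On U74Cv2 1 probe set read 510.8 on the Null array and 1156.8 on the WT array, 2.30-fold lower. A further U74Av2 probe set, at 16.7 in Null and 50.6 in WT, lay under the floor of that chip, the 40th percentile of its values (98.3 on U74Av2, 165 on U74Bv2 and 124 on U74Cv2). Whether these probe sets lie inside the disrupted stretch is not given by the labels. All 10 of 10 germ cell markers, Zbtb16 among them, were above the floor on both arrays, with a summed signal of 40143.5 in Null and 40428.9 in WT. Mov10l1 alone read 17240.1 in Null and 16376.6 in WT. The log2 ratios of Null over WT of these markers ran from -1.32 (Sall4) to 0.56 (Dazl), with a median of 0.10. The Sall4 value came from a U74Cv2 probe set for which the usual rules of probe selection were relaxed. All 9 of 9 Sertoli cell markers were above the floor too, with sums of 39936.6 in Null and 44391 in WT. Their ratios ran from -1.04 (Rhox5) to 0.14 (Gata4). Macrophage markers (4 of 4) summed to 14342.1 in Null and 18150.7 in WT, with ratios from -0.45 (Laptm5) to 0.01 (Csf1r). Laptm5 alone read 10423 in Null and 13972.2 in WT. Myoid markers (3 of 4 above the floor) summed to 12363.4 in Null and 14877.5 in WT, with ratios from -0.37 (Mylk) to 0.02 (Myh11). Mylk alone read 7879.2 in Null and 10125.1 in WT. Endothelial markers (4 of 4) summed to 2264.3 in Null and 2252.5 in WT, with ratios from -0.36 (Egfl7) to 0.21 (Pecam1). Leydig markers (4 of 5 above the floor, Insl3 below it) summed to 1291.2 in Null and 1728 in WT, with ratios from -0.81 (Cyp11a1) to -0.13 (Cyp17a1), and erythroid markers (1 of 2) to 2788.5 in Null and 4559.1 in WT. Of 5 spermatid markers Prm2, Tnp2 and Acrv1 were below the floor on both arrays, and the sum was 1465.8 in Null and 1391.1 in WT. Prm1 stood at 0.94 and Tnp1 at -0.41, both from probe sets of relaxed probe selection. Whether these signals stem from spermatid transcripts was not tested. The Zfp signals come from RNA in which somatic transcripts were also strong, and a change in cell makeup and a change of RNA per cell cannot be told apart. The part of these shifts in any Zfp ratio was not tested.

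Sequence around the transcription start is shown for the 3 Zfp genes that differed by 2-fold or more, described further on, and for Zfp365, chosen after its values were seen because both of its probe sets were higher in Null. Each window runs from 250 bases before to 50 bases after a start given by RefSeq on GRCm38.p6. Capitals mark matches on either strand to any of 5 motifs. The GC box, bound by Sp and Klf proteins, was searched as GGGCGG. The box bound by NF-Y was searched as CCAAT, and the core bound by ETS factors as CCGGAA. The TATA box was searched as TATAAA and the E-box as CACGTG. A match describes the letters and is not a shown binding site. Zfp62 has a pair of annotated starts.

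Zfp113, chr5:138155695-138155994, - strand: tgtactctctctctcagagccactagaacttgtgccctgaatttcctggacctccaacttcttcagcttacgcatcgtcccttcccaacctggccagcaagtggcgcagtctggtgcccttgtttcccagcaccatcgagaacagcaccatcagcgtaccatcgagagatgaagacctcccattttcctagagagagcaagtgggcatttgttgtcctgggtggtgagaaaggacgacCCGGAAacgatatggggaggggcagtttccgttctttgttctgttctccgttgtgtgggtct
Zfp626, chr7:27806946-27807245, + strand: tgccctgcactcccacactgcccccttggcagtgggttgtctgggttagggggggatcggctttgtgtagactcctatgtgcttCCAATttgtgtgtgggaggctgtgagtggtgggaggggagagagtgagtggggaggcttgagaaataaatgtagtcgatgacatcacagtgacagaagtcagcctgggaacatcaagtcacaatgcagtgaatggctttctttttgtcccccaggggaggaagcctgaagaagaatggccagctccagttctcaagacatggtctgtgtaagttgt
Zfp365, chr10:67912613-67912912, - strand: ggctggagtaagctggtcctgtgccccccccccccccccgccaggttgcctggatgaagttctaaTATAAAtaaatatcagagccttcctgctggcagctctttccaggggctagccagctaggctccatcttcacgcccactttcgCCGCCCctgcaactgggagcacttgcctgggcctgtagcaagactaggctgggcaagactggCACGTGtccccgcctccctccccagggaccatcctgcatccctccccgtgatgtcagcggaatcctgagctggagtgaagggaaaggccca
Zfp62, chr11:49203042-49203341, + strand: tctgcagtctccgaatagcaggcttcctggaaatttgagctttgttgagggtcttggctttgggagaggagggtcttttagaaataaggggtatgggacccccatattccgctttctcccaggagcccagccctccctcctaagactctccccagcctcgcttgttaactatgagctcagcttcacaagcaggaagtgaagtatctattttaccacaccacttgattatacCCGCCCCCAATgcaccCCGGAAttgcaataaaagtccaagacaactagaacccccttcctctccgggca
Zfp62, chr11:49203481-49203780, + strand: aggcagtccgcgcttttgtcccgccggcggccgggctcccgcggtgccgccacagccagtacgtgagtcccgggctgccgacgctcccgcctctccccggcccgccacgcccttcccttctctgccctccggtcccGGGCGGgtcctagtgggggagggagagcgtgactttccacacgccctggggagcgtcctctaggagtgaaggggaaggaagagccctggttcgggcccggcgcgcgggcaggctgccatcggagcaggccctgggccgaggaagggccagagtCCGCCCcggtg

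The window of Zfp113 held the ETS core as its only match, that of Zfp626 a CCAAT box as its only match, and that of Zfp365 a TATA box, a GC box and an E-box. The upstream window of Zfp62 held a GC box, a CCAAT box next to it and an ETS core, and the downstream one GC boxes. In all, 211 of the 254 Zfp genes had a window, 251 windows together. The ETS core occurred in 33.5% of the Zfp windows, against 21.7% of the 16015 windows of genes on the arrays and 14.9% of all 32851 windows. It was also in 34.2% of the 38 windows of Zbtb genes, in 60% of the 15 windows of Zkscan and Zscan genes and in 0 of the 12 windows of Klf genes. The CCAAT box was in 45.8% of Zfp windows, against 37.4% both over the arrays' genes and over all windows. For the other motifs the shares in Zfp windows and in windows of the arrays' genes were 49.8% and 54.6% (GC box), 7.57% and 9.34% (TATA box) and 6.37% and 8.99% (E-box). Across all windows the shares were 35.7%, 13.6% and 7.15%. The median number of CG dinucleotides was 15 in Zfp windows, 17 in those of the arrays' genes and 7 over all windows. The 64 measured Zfp genes with an ETS core had a median log2 ratio of -0.07, and the 107 without one 0.03.

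Zfp genes gave signal about as often as other genes. Of the 254, 196 were above the floor on both arrays (77.2%), 4 only in Null, 9 only in WT, and 45 on neither. Over all 15964 genes the share above the floor on both arrays was 70.8%. Each gene is represented by its probe set of highest level rank within its chip. The median level percentile of these was 57.6 for Zfp genes on U74Av2 against 63.4 for all genes there, 64.2 against 68.2 on U74Bv2, and 78.9 against 69.6 on U74Cv2. Signal differs between probe sets for reasons other than transcript amount, so these ranks do not order genes by expression.

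The 6 Zfp genes of highest rank on each chip differed by less than 1.5-fold between the Null and WT arrays. On U74Av2 these were Zfp644, known in human for binding the Ehmt1 and Ehmt2 histone methyltransferases, at 2700.3 in Null and 2375.4 in WT, Zfp207, a spindle and splicing protein, at 2055.8 in Null and 1873.2 in WT, and Zfp598, a ubiquitin ligase of collided ribosomes, at 2006 in Null and 1857.3 in WT. Zfp1 stood at a log2 ratio of 0.35, Zfp292 at 0.15 and Zfp91, a ubiquitin ligase, at -0.21. On U74Bv2 Zfp414 read 3305 in Null and 3440.2 in WT, Zfp334 read 3009.9 in Null and 2984.6 in WT, and Zfp281, a pluripotency-linked factor, read 2652.8 in Null and 2627.7 in WT. Zfp395 stood at -0.11, Zfp318 at 0.44 and Zfp628 at 0.12. On U74Cv2 Zfp449 read 4545 in Null and 3943.7 in WT, Zfp266 read 4113.8 in Null and 3647.6 in WT, and Zfp217, known in human as a partner of corepressor complexes, read 3706 in Null and 3817 in WT. Zfp40 stood at 0.36, Zfp987 at 0.31 and Zfp41 at -0.35. Among these 18 bright genes no ratio reached 1.5-fold. The spread between probe sets of one gene, defined further on, was 0.15 for bright probe sets of U74Av2. On U74Bv2 it was 0.25 and on U74Cv2 0.31. The ratios of Zfp1, Zfp91, Zfp644, Zfp318, Zfp40 and Zfp41 were beyond the spread of their chip, and that of Zfp292 was about equal to it. Those of the other genes were within it. In other measured probe sets Zfp1 gave 0.004, Zfp91 -0.07, Zfp292 0.51, and Zfp40 -0.45 and 0.40. Zfp644 and Zfp41 had no other measured probe set, and those of Zfp318 are given further on.

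**Figure D1:**
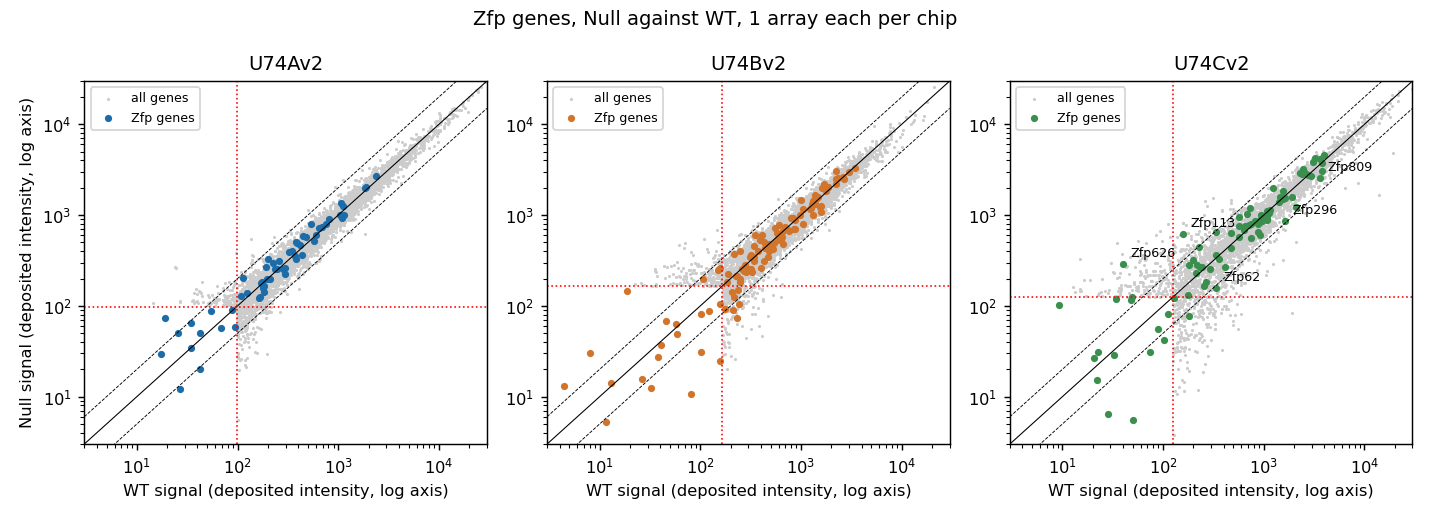
Signal of the Zfp genes (coloured points, 1 per gene) on the Null array (y axis) against the WT array (x axis) of each chip, as deposited intensities on log axes. Grey points are all genes above the floor on at least 1 array, dashed lines mark 2-fold and red dotted lines the floor. Most Zfp genes above the floor lie close to the diagonal, and Zfp113 and Zfp626 on U74Cv2 lie above the upper 2-fold line.

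Taken over all 209 Zfp genes above the floor on at least 1 array, log2 Null over WT had a median of 0.01, with quartiles of -0.19 and 0.20, and 109 ratios were above 0 and 100 below. All 12435 genes measured the same way had a median of -0.01 and quartiles of -0.22 and 0.20. The 196 measured on both arrays had the same median, 0.01. Zfp genes on U74Av2 had a median of 0.09 (29 above 0, 17 below), against -0.01 over all genes of that chip. On U74Bv2 it was -0.03 (45 above 0, 50 below) against -0.01, and on U74Cv2 0.01 (35 above 0, 33 below) against -0.02. The standard deviation over Zfp genes of U74Av2 was 0.29 (0.31 over all genes), that of U74Bv2 0.32 (0.36) and that of U74Cv2 0.50 (0.58).

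**Figure D2:**
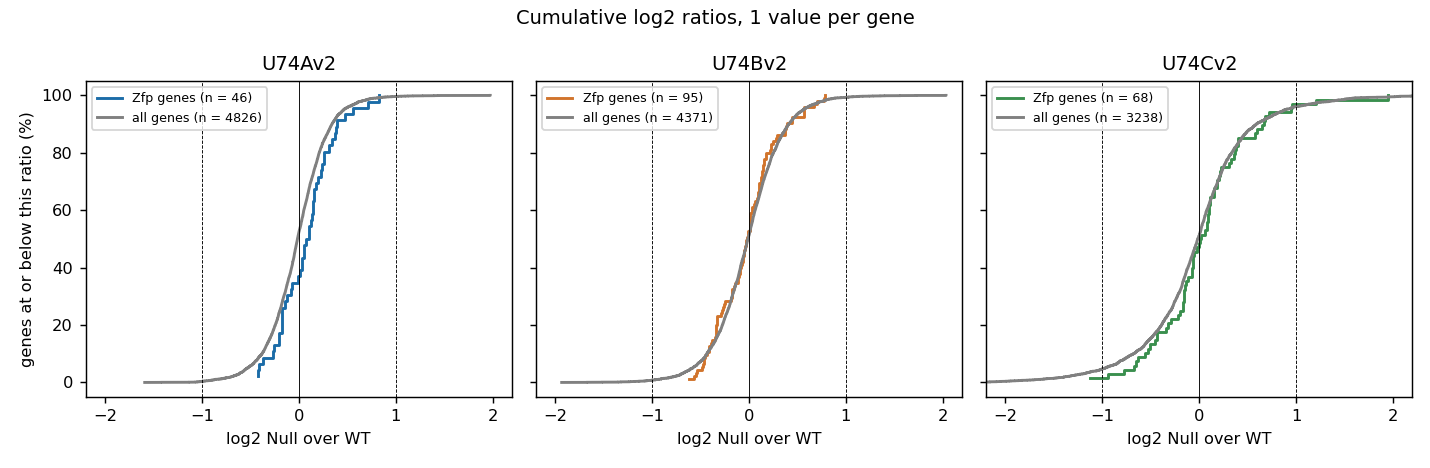
Cumulative share of genes (y axis, percent) at or below each log2 Null over WT ratio (x axis), 1 value per gene, for Zfp genes (coloured) and all genes (grey) of each chip. Dashed lines mark 2-fold. The curves run close together on U74Bv2 and U74Cv2, and on U74Av2 the Zfp curve lies to the right near 0, with medians of 0.09 and -0.01.

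At least 2-fold differences were few. Zfp113 and Zfp626 were higher in Null and Zfp62 was lower, 3 of 209 genes, beside 1.42% of all genes higher and 1.64% lower (3.06% in either direction). All 3 rest on U74Cv2, the chip on which differences were most frequent. With 1 value per gene on each chip, 0 of 63 Zfp genes were 2-fold different on U74Av2 (0.821% of all genes), 1 of 115 on U74Bv2 (1.6%) and 4 of 80 on U74Cv2 (9.59%). At 1.5-fold 15 of the 209 were higher, beside 5.32% of all genes, and 7 were lower, beside 6.35%. Of these, 9 of the higher and 6 of the lower were on U74Cv2. They were 13.2% and 8.82% of the 68 Zfp genes represented on that chip, beside 10.2% and 12.3% of all genes represented there. How far probe sets for one gene differ on a chip, taken as a scaled median absolute difference divided by the square root of 2, was 0.55 for dim, 0.48 for intermediate and 0.31 for bright probe sets of U74Cv2. On U74Bv2 it was 0.35, 0.34 and 0.25, and on U74Av2 0.35, 0.27 and 0.15. This spread compares probe sets on the same pair of arrays. It leaves out variation between arrays, RNA extracts and animals, so a ratio beyond it may still lie within that variation. The ratio was smaller than the spread at its level for 137 of 209 Zfp genes (65.6%), against 64.1% of all genes. It was above 2 spreads for 16 (7.66%), against 9.90%. Genes at the floor on 1 array, 13 of the Zfp genes, entered these counts at their bounds, and their ratios may be larger.

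Zfp113 had the largest ratio among the values taken per gene. Its only probe set read 617.5 in Null and 157.8 in WT, a log2 ratio of 1.94 or 3.85-fold higher, with the WT value not far above the floor of 124. The ratio exceeds the spread of 0.55 at that level, which leaves out variation between arrays, and no other probe set measured Zfp113. Zfp626 had 2 probe sets, and each was above the floor in Null alone. They read 291 and 244.5 in Null, against 39.8 and 46.6 in WT, so Zfp626 was at least 2.31-fold higher by the first and at least 1.94-fold higher by the second. Their agreement is between probes on the same pair of arrays. Zfp62 read 157.9 in Null and 338.4 in WT on U74Cv2, a log2 ratio of -1.12, or 2.18-fold lower. That probe set carries a suffix given where the usual rules of probe selection were relaxed. The U74Av2 probe set read 241.8 in Null and 191.3 in WT, a ratio of 0.33, in the opposite direction. Another probe set of Zfp62, at 12.6 in Null and 11.6 in WT, was below the floor.

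Zfp809 and Zfp414 were past 2-fold on 1 chip only, and their probe sets of highest level rank, on another chip, were not. Zfp809, which silences integrated retroviral DNA in the mouse, read 854.4 in Null and 275.4 in WT on U74Bv2, 1.63 on the log2 scale. On U74Cv2 its probe sets read 2572.4 and 562.4 in Null, against 3598.7 and 805.3 in WT, ratios of -0.51 and -0.54, from probe sets whose suffixes mark a sequence family and relaxed probe selection. Zfp414 read 557.3 in Null and 140.5 in WT on U74Cv2, a ratio of 1.96, while its U74Bv2 probe set gave -0.06. Both genes thus had probe sets more than 2 log2 units apart, and they were the widest ranges among Zfp genes, at 2.17 and 2.03.

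Repeated probe sets otherwise show how far these ratios hold within the data. Of the 254 genes, 115 had more than 1 probe set, and 57 had at least 2 above the floor on both arrays. In 25 of the 57 all ratios had one sign (43.9%), 17 above 0 and 8 below, beside 46.2% of 3997 genes over all. For the 40 Zfp genes with exactly 2 such probe sets the share was 57.5%, beside 55.2%. The median range within a gene was 0.42 for Zfp genes and 0.40 for all genes. Zfp365, Zfp651 and Zfp637 were singled out after their values were seen, as genes with all ratios on one side of 0. Zfp365, a centrosomal protein gene studied in neurons and oligodendrocytes, read 659.6 and 364.4 in Null, against 336.9 and 167.3 in WT, ratios of 0.95 and 1.10 from its U74Cv2 probe sets. The second is past 2-fold, as were 6 of the 308 measured Zfp probe sets, beside 3.77% of all probe sets. Zfp651 gave 0.89 on U74Cv2, 0.51 and 0.40 on U74Av2 and 0.08 on U74Bv2, a range of 0.81 that is wider than the median range. On the lower side Zfp637 gave -0.35 on U74Av2 and -0.45 on U74Cv2.

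**Figure D3:**
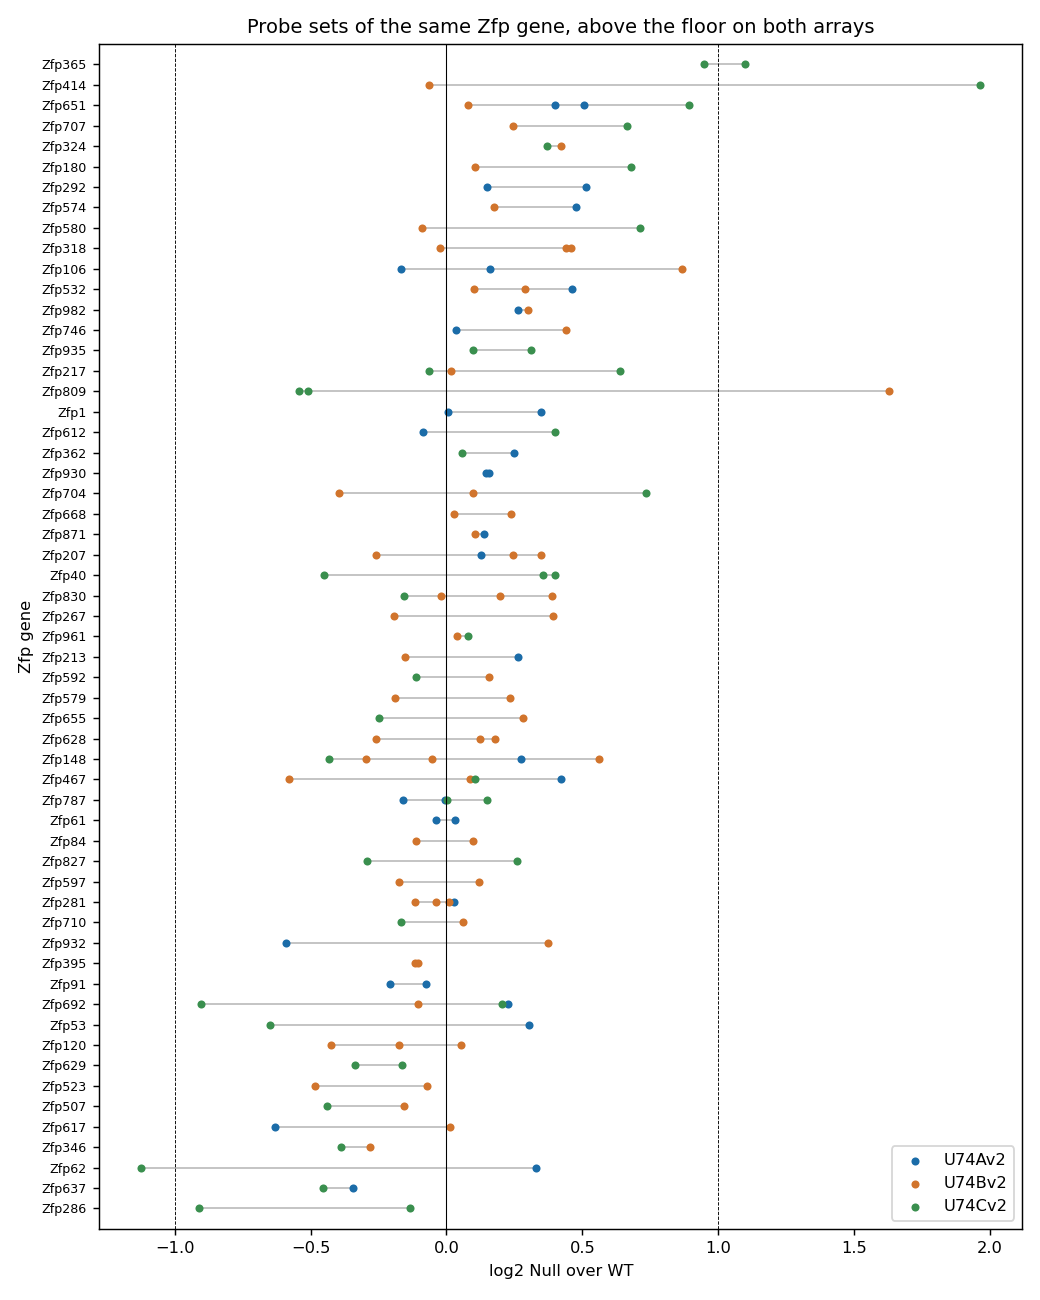
Log2 Null over WT (x axis) of each probe set of the 57 Zfp genes with at least 2 probe sets above the floor on both arrays (y axis, ordered by their mean), coloured by chip, with a line over the range. Dashed lines mark 2-fold. Zfp365 has both points near 1, while Zfp809, Zfp414 and Zfp62 span both sides of 0.

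On several chips 36 Zfp genes were above the floor on both arrays, and probe sets of the brightest of them differed in how closely they matched. Zfp281 gave 0.03 on U74Av2 and 0.01, -0.04 and -0.11 on U74Bv2. Zfp217 gave -0.07 and 0.64 on U74Cv2 and 0.02 on U74Bv2. Zfp532 was above 0 throughout, at 0.46 on U74Av2 and at 0.29 and 0.10 on U74Bv2. Zfp207 gave 0.13 on U74Av2 and 0.35, 0.24 and -0.26 on U74Bv2, where another probe set was above the floor in Null alone. Zfp787 stayed within -0.16 and 0.15 over its probe sets. Zfp692 ranged from -0.90 to 0.20 between 2 probe sets on U74Cv2 alone.

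The role lists that follow were drawn up with earlier results of these data in view, so their counts are descriptions. Zfp genes with a known part in silencing retroelements or imprints lay on both sides of 0. Of 7 listed, 5 were measured, 2 above and 3 below 0, with a median of -0.08. None was 2-fold different by its probe set of highest level rank, beside 3.06% of all genes. Zfp809 counts below 0 by that probe set, on U74Cv2 (-0.51). Its U74Bv2 probe set, at 1.63, was past 2-fold in the opposite direction. Zfp445, which protects imprints, read 799.7 in Null and 1058.6 in WT, a ratio of -0.41. Zfp568, a repressor of a placental Igf2 transcript, read 354.6 in Null and 371.7 in WT (-0.08). Zfp708, which binds a class of retroelements, stood at 0.01. Zfp932, a repressor of endogenous retroviruses, gave 0.37 on U74Bv2 and -0.59 on U74Av2. Zfp57, the other imprint guardian, read 73.9 in Null and 18.9 in WT, both below the floor, and gives no fold.

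The list of KRAB corepressor genes, which also holds Zfp57 and Zfp445, had 25 of 30 genes measured. By 1 probe set per gene, 19 of these were above 0 and 6 below, where 48.5% of all genes were above 0. The median was 0.12 beside -0.01 over all genes, and no gene was 2-fold different, beside 3.06% of all genes. Trim28, the KRAB corepressor, read 11922.5 in Null and 11666.3 in WT on U74Cv2 (0.01), and 10106.8 in Null and 8390.4 in WT on U74Av2 (0.26), with 0.30 in a dimmer U74Cv2 probe set. The chromatin remodeller Chd4 stood at 0.01, with 0.58 and -0.07 in its other probe sets, the histone chaperone Rbbp7 at 0.09, and the methyltransferase Ehmt1 at 0.31. The list's range ran from -0.55 for Cbx3, a heterochromatin protein at the floor in Null, to 0.55 for Gatad2a, a subunit of the NuRD complex. The other measured probe sets of Gatad2a gave 0.36 and -0.25. Smarcad1, counted below 0 at -0.53, gave bounds of 0.61 and 0.43 elsewhere. Cbx5, at -0.44, gave 0.12, -0.09, 0.46 and a bound of 0.28. Morc3, counted above 0 at 0.10, also gave -0.38. All measured probe sets of Dnmt3a, Dnmt3b and Uhrf1 were above 0.

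Among factors of stem and pluripotent cells 4 of 7 listed genes were measured, 2 above and 2 below 0. Zfp296, which takes part in reprogramming, had the lowest ratio of any listed Zfp gene, at 860 in Null and 1627.3 in WT on U74Cv2, or -0.94. On U74Bv2 it was above the floor of 165 in Null alone, at 228 in Null and 157.1 in WT, the opposite direction. Zfp462, a heterochromatin regulator, read 1589.3 in Null and 1421.6 in WT (0.16). Zfp42, the pluripotency marker also called Rex1, was below the floor, at 50.8 in Null and 25.8 in WT.

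Zfp genes that act on RNA or ribosomes were measured in 11 of 11 cases, 6 above and 5 below 0, with a median of 0.03. The highest was Zfp638, a nuclear RNA- and DNA-binding protein, at 797 in Null and 539 in WT, a ratio of 0.56, while its other probe set was below the floor. Zfp318, needed for IgD expression in mouse B cells, read 3062.2 and 1803.5 in Null, against 2249.7 and 1308.9 in WT, for ratios of 0.44 and 0.46, while another of its probe sets gave -0.02. The ribosome assembly factors Zfp593 and Zfp622 stood at 0.03 and 0.14, the ubiquitin ligase Zfp598 at 0.10, and the spliceosome-linked gene Zfp326 at -0.14. Zfp830, also linked to splicing, gave -0.16 from a family probe set on U74Cv2, and 0.39, 0.20 and -0.02 on U74Bv2. Zfp36, which speeds decay of AU-rich messages, stood at -0.21 and the double-stranded RNA binder Zfp346 at -0.28, with -0.39 in its other probe set. Zfp106, an RNA-binding protein of motor neurons and muscle, gave -0.17 and 0.16 on U74Av2 and 0.87 on U74Bv2.

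All 6 measured genes of the male germ cell list, of 12 listed, were above 0, where 48.5% of all genes were. Their median was 0.25 beside -0.01 over all genes, and none was 2-fold different, beside 3.06% of all genes. Zfp148, whose loss of a copy impairs mouse germ cells, led with 1478 in Null and 997.3 in WT, a ratio of 0.56. Its other probe sets gave 0.28 on U74Av2, -0.05 and -0.30 on U74Bv2 and -0.43 on U74Cv2. Zfp318 came next at 0.44 and Zfp35 read 588.2 in Null and 448.6 in WT (0.38). Zfp628, needed late in mouse spermatogenesis, stood at 0.12 with -0.26 and 0.18 in its other probe sets. Zfp105 and Zfp110 stood at 0.06 and 0.05, within the spread of their chip. Zfp37 and Zfp59, known from later male germ cells, were below the floor on both arrays, at 29.6 and 20.4 in Null, against 17.2 and 42.3 in WT. The germ cell markers had a median ratio of 0.10, and their part in the list's values was not tested.

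Developmental regulators were measured for 7 of 12 listed genes, 3 above and 4 below 0, with a median of -0.09. Zfp423, a factor of fat and cerebellar development, read 560.1 in Null and 743.6 in WT (-0.43), and Zfp335, a neural progenitor regulator, read 1214 in Null and 1534.3 in WT (-0.34). Zfp703 stood at 0.23, Zfp609, a partner of the cohesin loader, at 0.10 and Zfp24 at -0.11. Zfp467 gave 0.10 on U74Cv2, 0.42 on U74Av2, and 0.09 and -0.58 on U74Bv2. Zfp521 was above the floor in WT alone, at 92.2 in Null and 175.5 in WT. Broadly expressed DNA-binding factors were measured for 7 of 11, 3 above and 4 below 0, with a median of -0.05. Besides those already named, Zfp263 stood at -0.33, Zfp410, which sustains Chd4 expression, at -0.05 and Zfp692 at 0.20.

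**Figure D4:**
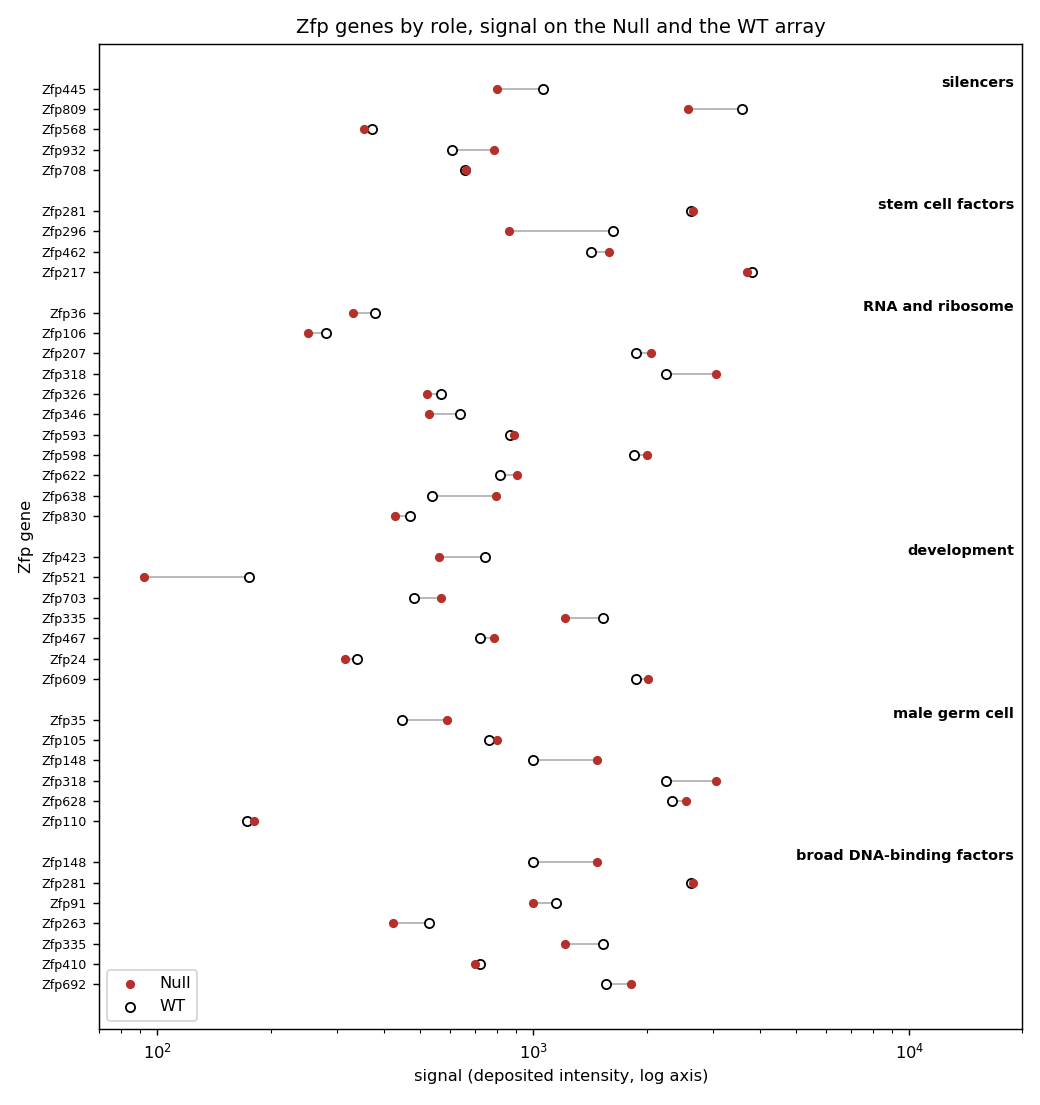
Signal on the Null array (filled red points) and the WT array (open points) for the measured Zfp genes of each role list, as deposited intensities on a log axis, 1 probe set per gene. Levels are not comparable between genes. In the male germ cell list the Null point lies to the right of the WT point for 6 of 6 genes, and Zfp296 shows the widest gap among genes above the floor on both arrays.

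Many Zfp genes lie in tandem clusters. Of the 211 genes with a promoter window on GRCm38.p6, 60 were on chromosome 7, 33 on chromosome 17, 15 on chromosome 8 and 14 on chromosome 13. In the order of protein-coding genes of that assembly, 108 of the 254 lay directly beside another one, in 36 runs. Of the 29 runs with at least 2 measured genes, 23 held ratios on both sides of 0, 3 only above and 3 only below. The longest, 12 genes from Zfp84 to Zfp566, had 10 measured, 4 above and 6 below 0, from -0.53 to 0.79. The run from Zfp677 to Zfp983 had 5 of 6 measured genes above 0, with Zfp51 at 0.83, Zfp677 at 0.78 and Zfp52 at 0.57, where WT was at the floor. Zfp53 in that run gave -0.65 on U74Cv2 but 0.30 on U74Av2. In the run from Zfp524 to Zfp580 all 4 were below 0, at -0.41, -0.08, -0.53 (Null at the floor) and -0.09, though another probe set of Zfp580 gave 0.71. Neighbouring Zfp genes can resemble each other in sequence, which was not compared here. Of the 427 probe sets, 39 (9.13%) carry the suffix for a sequence family, that of Zfp51 among them, beside 7.86% of all probe sets with 1 symbol. Signal in such probe sets may be shared, and their separate values are uncertain.

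Other zinc finger families stood in a similar range. Of the Zbtb genes, to which Zbtb16 belongs, 29 were measured. Their median was 0.04, with 16 above 0 and Zbtb16 itself as the single 2-fold difference. The 13 Klf genes had a median of 0.02 with none 2-fold different. The 15 Zkscan and Zscan genes, which carry a SCAN domain, had a median of -0.07 with Zscan30 at 1.15. Zscan30 read 320.4 in Null and 141.7 in WT on U74Cv2, the WT value being not far above the floor of 124. The spread at its level was 0.55. Over all genes 3.06% were 2-fold different, and 9.59% with 1 value per gene on U74Cv2. No test of a difference between these families and the Zfp genes was possible on single arrays.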

How the data were processed

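The values are linear intensities per probe set as the authors deposited them, for 1 Null and 1 WT array on each of 3 chips. The software and background correction behind the deposited intensities were not given in the sources used. The mean after trimming 2% at each end was 499.9 on all 6 arrays, so intensities had been scaled per array. Probe sets were named by GEO's platform annotation, and matching Entrez identifiers to RefSeq changed 0 Zfp symbols.

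Per chip, 66 control probe sets were set aside, Null was divided by the median Null over WT ratio above the 50th level percentile (a log2 shift of 0.01, 0.00 and 0.02), values were raised to a floor at the 40th percentile, and log2 of Null over WT was taken. Intensities in the text are as deposited. Where 1 array was at the floor, the ratio is a bound. A gene takes the value of its probe set of highest level rank.

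Genes named were Zbtb16, the 6 brightest Zfp genes per chip, those past 2-fold, the measured members of the role lists, the 8 brightest on several chips, and the 4 brightest corepressors. Cbx3 and Gatad2a, the extremes of the corepressor list, and Zscan30 were named for their ratios. Other corepressor genes were named for their repeated probe sets. A further 13 Zfp genes, such as Zfp365 and those of the gene runs, were named after their values were seen. Members and lists were chosen with earlier results of these data known. Protein domains were not counted, since no protein sequences were used here. Alternatives were other scalings, floors, thresholds, probe set choices and chips. Scripts were tested on simulated data and ran under Python 3.11.15 with pandas 2.3.3, numpy 2.4.6, matplotlib 3.10.9 and statsmodels 0.14.6.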

Additional observations from a re-analysis of the deposited data

How the results depend on the processing

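The same 2 Zfp genes were higher and the same 1 lower with the values as deposited, after quantile normalization and after loess, with medians of 0.017, 0.019 and 0.020 in place of 0.01. A floor lowered to the 20th percentile left 8 of 240 Zfp genes higher and 7 lower, beside 3.49% and 4.71% of all genes. Without a floor the counts were 11 and 16 of 254, beside 5.24% and 7.27%. At the 60th percentile they were 0 and 0 of 148, beside 0.42% and 0.57%, with a median of 0.053. When probe sets with a suffix were left out they were 3 and 0 of 174, beside 1.27% and 1.39%. With the mean over a gene's probe sets they were 3 and 0 of 210, beside 1.42% and 1.64% for all genes by their probe set of highest level rank. Without U74Cv2 they were 1 (Zfp809) and 0 of 161, beside 0.532% and 0.648%. On U74Av2 alone they were 0 and 0 of 63, beside 0.352% and 0.469%, with a median of 0.078. At 1.5-fold they were 15 and 7 of 209, and at 3-fold 1 and 0, beside 0.298% and 0.362%. Of 588 values of 65 named Zfp genes under the alternatives, 554 stayed within the spread between probe sets and 34 moved further. The sign changed in 32, by more than the spread in 21 of them, which belong to 13 genes. Zfp62 turned to 0.33 without suffixed probe sets, without U74Cv2 and on U74Av2 alone. Without suffixed probe sets or U74Cv2, Zfp809 stood at 1.63 against -0.51, Zfp296 at 0.46 (a bound) against -0.94 and Zfp830 at 0.39 against -0.16, because another probe set then stood for the gene. Zfp113 stood at 0.98, as a bound, with the floor at the 60th percentile. No paired analysis was possible because each genotype had 1 array per chip. Signal near the floor limits the dimmer genes, and single arrays limit them all.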

Other observations

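Probe sets annotated with several genes were not used for the Zfp genes above, and 18 of them name at least 1 Zfp gene. Of these 17 were measured, with log2 ratios of Null over WT from -0.91, where Null was at the floor, to 0.27. None was 2-fold different, beside 3.77% of all probe sets with 1 symbol. For Zfp706, which shares its probe sets with Gm10193, 3 probe sets on U74Av2 gave 3419.5, 1813.6 and 925.5 in Null, against 3792.9, 1989 and 1051.3 in WT, ratios of -0.16, -0.14 and -0.19. For Zfp64, shared with Gm38422, the ratio was -0.09 on U74Av2 and -0.30 on U74Cv2.

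Some Zfp genes with a single probe set were picked after their values were seen. Zfp595 read 445.9 in Null and 225.7 in WT on U74Cv2, a ratio of 0.96 against a spread of 0.55 at its level. Zfp82 read 607.4 in Null and 350.8 in WT on U74Bv2, a ratio of 0.79 against a spread of 0.34. On the lower side Zfp697 read 1230.9 in Null and 2076.3 in WT on U74Cv2, a ratio of -0.78 against a spread of 0.31 at its level. Zfp606 read 598.2 in Null and 914.5 in WT on the same chip, a ratio of -0.64 against a spread of 0.48.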
